A study of Mus musculus with 8 samples.

Results

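Transcript levels of 10 genes of threonine catabolism, serine synthesis and mitochondrial one-carbon metabolism (Tdh, Gcat, Gldc, Shmt1, Shmt2, Mthfd2, Mthfd1l, Phgdh, Psat1 and Psph) were compared between a mouse embryonic stem cell (ESC) line and 4 lines of secondary induced pluripotent stem cells (iPSCs). The members were taken by gene name from the 22878 gene rows shared by all libraries, each had 1 row, and all 10 passed the filter on low values that left 13693 genes for testing. RNA-Seq covered 8 libraries: 2 of the ESC line R1, 2 of line 16-6 (from hematopoietic cells, mesoderm), 2 of line 32 (from adipocyte progenitor cells, mesoderm), 1 of S8 (from epidermal cells, ectoderm) and 1 of T2 (from stomach lining cells, endoderm). The 4 iPSC lines came from somatic cells of 8-week-old mice grown wholly from a doxycycline-inducible iPSC line, and doxycycline switched on Oct4, Sox2, c-Myc and Klf4 to reprogram them. Each line stands for 1 derivation, so line and tissue of origin cannot be told apart, and R1 also differed from the iPSC lines in its history. The strains of the lines are not given in the sources used here, and the feeders came from ICR mouse embryos. All lines were described as grown with serum and LIF on mitotically inactivated mouse embryonic fibroblast feeders, while the sample labels speak of embryos as the tissue. The study's methods call the replicates of a line biological, but neither they nor the labels say that they were separate cultures, so p-values measure only the spread between these libraries.

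As background, Tdh (threonine dehydrogenase) oxidises threonine in mitochondria, and Gcat (glycine C-acetyltransferase) splits the product into glycine and acetyl-CoA. Gldc is the decarboxylating subunit of the glycine cleavage system, which passes a carbon of glycine to tetrahydrofolate. Mouse ESCs are known for high Tdh and for their need of threonine. Serine is the other main source of folate-bound carbon: Phgdh, Psat1 and Psph make it from a glycolytic intermediate, Shmt1 (cytosol) and Shmt2 (mitochondria) interconvert it with glycine, and Mthfd2 and Mthfd1l turn the mitochondrial folate unit into formate for purine and thymidylate synthesis.

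FPKM, fragments per kilobase of transcript and 1000000 mapped fragments, were used after division by 1 common constant. FPKM are scaled by transcript length, so levels of different genes can be set side by side. Differences were fitted as log2(FPKM + 1) with limma over all 13693 genes, and a gene was called at a Benjamini-Hochberg adjusted p below 0.05 over all genes. The second count adds a difference of at least 2-fold. Between 2 and 2 libraries an exact permutation test cannot go below p = 0.33. The confidence limits in the files imply 15.5 to 16.7 fragments per library in units of 1000000, and 238 (Gcat, 16-6) to 6778 (Tdh, R1) fragments behind each member value. The study's list of read numbers gives S8 and T2 far more reads and a smaller uniquely mapped share than the other lines, which the limits in the files do not show, so the fragments behind the S8 and T2 values are uncertain. Sequencing of these libraries and their lines cannot be told apart in the results below. Of 10 pluripotency markers 9 had a row and were read in every library, with summed FPKM of 2650 to 5413 and none at 0. The 12 fibroblast markers chosen for the feeders were also read in every library and summed to 983 and 1014 FPKM in R1, 3129 and 3113 in 16-6, 248 and 238 in 32, 637 in S8 and 913 in T2. All 12 were higher in 16-6 than in 32 (27.5% of all genes). Against R1, 9 were higher in 16-6 (25.7% of all genes), with Acta2 at log2 3.83, and 3 were lower (29.9%). The 3 were Dcn (-2.63), Lum (-2.72) and Col3a1 (-0.2). Primitive endoderm markers summed to 24.3 and 27.2 FPKM in R1 and 22.7 and 23 in 16-6. They were at 4.84 and 5.05 in 32, 7.55 in S8 and 10.1 in T2. Dab2 (12.2 and 13.2 FPKM) and Pdgfra (9.18 and 9.92) made up most of the R1 sums. In 32 they lay at log2 -2.3 and -2.94 from R1. Gata4, Gata6, Sox7, Sox17 and Foxa2 lay at 0.09 to 1.52 FPKM in all libraries. Against R1, Gata6 was at log2 -0.7, -0.54 and -0.55 in 32, S8 and T2. Foxa2 was at 0.47, 0.4 and 0.81 in the same lines. Primed epiblast and mesendoderm markers summed to 13.2 and 13.2 in R1, 38.2 and 39.4 in 16-6 and 60.6 and 61.6 in 32. Their sum was 19.8 in S8 and 39.8 in T2. In 32 all 6 were higher than R1 (28.6% of all genes), with T at log2 2.64, Eomes at 2.02, Fgf5 at 1.64 and Mixl1 at 1.15. In bulk RNA, fewer cells of a type and less RNA per cell cannot be told apart, and the part of the feeder signal in the differences below was not tested.

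S8 and T2 held the lowest Tdh and the highest Phgdh and Mthfd2 of all libraries. Tdh was 2.23-fold lower in S8 and 2.22-fold lower in T2 than in R1 on the FPKM scale, while Phgdh was 2.56-fold and 2.34-fold higher in the same lines and Mthfd2 2.41-fold and 2.01-fold higher. Gldc, Mthfd2, Mthfd1l, Phgdh and Psat1 were higher than R1 in all 4 iPSC lines, 5 of 10 members, against 7.35% of all genes tested. None of the 10 members was lower than R1 in all 4 lines, against 9.28% of all genes. Tdh and Shmt1 lay above R1 in at least 1 line and below it in another, against 23.6% of all genes. Phgdh was the only member of the 5 whose call held in all 4 lines under each alternative that was run, and the call of Gldc in S8 was lost in 10 of the 13 alternatives run for it.

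Many genes differed between these lines, so counts of members are read against that background. In 16-6 against R1, 8 members were called, against 55.6% of all genes: 5 were higher (25.7% of all genes) and 3 lower (29.9%). In 32 against R1, 7 members were called, against 61.5%, all higher (28.6%, with 32.9% lower). In S8 against R1, 8 were called, against 66.7%: 7 were higher (32.1%) and 1 lower (34.6%). In T2 against R1, 7 were called, against 57.9%: 5 were higher (27%) and 2 lower (30.9%). In each line the total is above the background share, and so is the share that was higher. The members' mean levels, however, stand above 71.8% to 96.4% of the tested genes. None of the background shares was matched for level. With the 2-fold limit, 0 members passed in 16-6 (background 7.11%) and 0 in 32 (9.77%). In S8 3 passed (16.7%), Phgdh and Mthfd2 higher (6.93%) and Tdh lower (9.74%), and in T2 2 passed (10.5%), Phgdh higher (3.95%) and Tdh lower (6.54%). In T2 Mthfd2 was at 1.99-fold on the fitted log2(FPKM + 1) scale, just under the limit, and 3 members passed with pseudocount 0.1 and without R1 replicate 2. The median log2 difference of the members from R1 was 0.16 in 16-6, 0.23 in 32, 0.40 in S8 and 0.25 in T2, beside -0.03, -0.02, -0.03 and -0.03 over all genes. For the average over the iPSC lines, 8 members were called, against 65% of all genes, with 6 higher (29.9%) and 2 lower (35.2%), and none was 2-fold (6.41%).

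**Figure D1:**
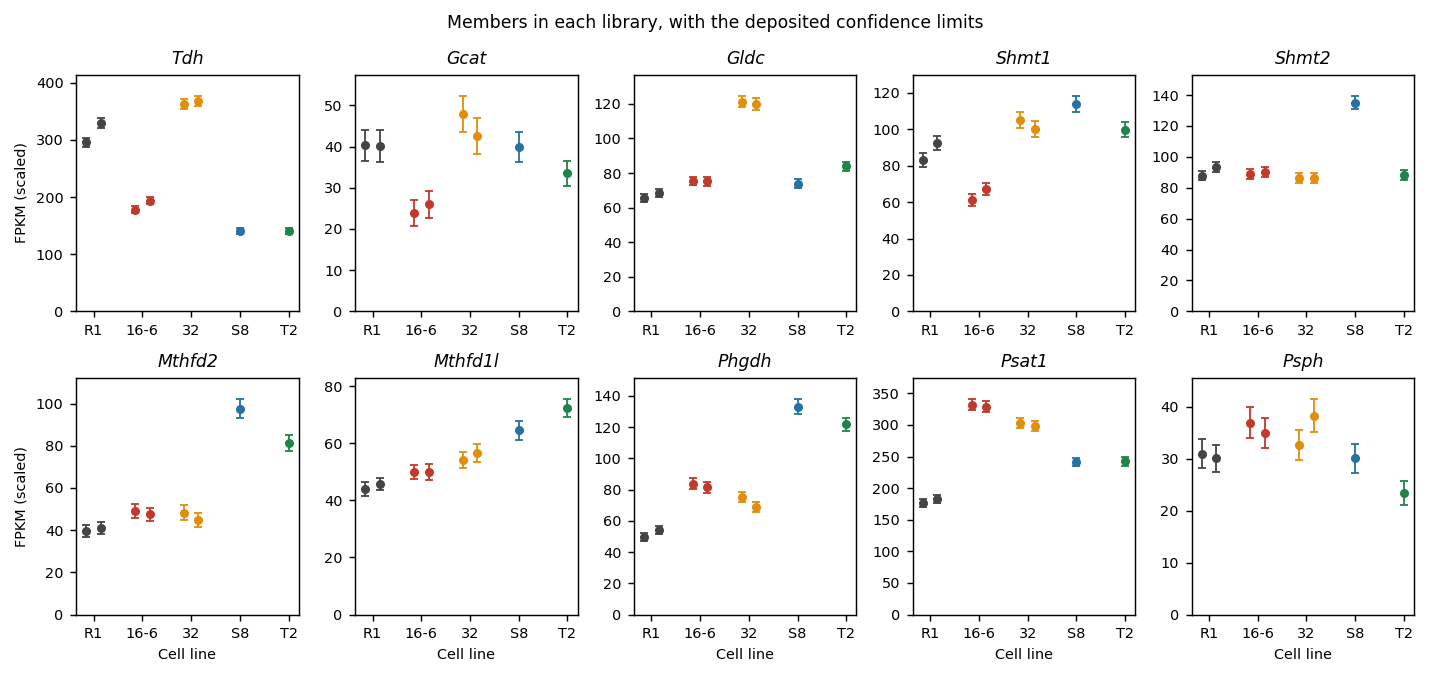
FPKM of each member (y axis, linear and starting at 0) in the 8 libraries, grouped by cell line (x axis). Each point is 1 library and its bar the confidence limits in the files. Tdh ran from 140.1 in S8 to 367.5 in 32, and Phgdh from 49.8 in R1 to 133 in S8.

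The 300-base RefSeq promoter windows (250 bases before to 50 after the annotated start, build GRCm38.p6) were searched on both strands for 3 motifs: the CCAAT box (CCAAT), the E-box (CACGTG) and the amino acid response element (TGATGNAA). Of the 10 members 9 had a window, and Tdh did not. The 250 bases before the start are shown for the 5 members that were higher in all 4 lines, with the CCAAT letters, on either strand, in capitals.
Phgdh (chr3:98339970-98340219, strand minus): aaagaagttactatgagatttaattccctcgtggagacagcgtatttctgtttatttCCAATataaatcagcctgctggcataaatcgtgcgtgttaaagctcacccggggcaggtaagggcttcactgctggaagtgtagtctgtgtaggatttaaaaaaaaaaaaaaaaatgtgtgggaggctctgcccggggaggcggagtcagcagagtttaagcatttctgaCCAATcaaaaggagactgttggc
Psat1 (chr19:15925060-15925309, strand minus): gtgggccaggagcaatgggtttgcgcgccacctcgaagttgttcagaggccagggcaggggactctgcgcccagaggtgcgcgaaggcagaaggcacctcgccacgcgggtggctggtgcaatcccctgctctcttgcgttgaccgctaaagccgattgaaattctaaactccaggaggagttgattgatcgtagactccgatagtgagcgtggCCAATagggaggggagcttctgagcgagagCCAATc
Mthfd2 (chr6:83317605-83317854, strand minus): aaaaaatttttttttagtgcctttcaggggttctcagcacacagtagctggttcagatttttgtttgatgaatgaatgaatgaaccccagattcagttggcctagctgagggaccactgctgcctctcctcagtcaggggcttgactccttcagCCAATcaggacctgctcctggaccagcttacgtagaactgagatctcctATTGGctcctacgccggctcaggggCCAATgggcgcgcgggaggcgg
Mthfd1l (chr10:3972825-3973074, strand plus): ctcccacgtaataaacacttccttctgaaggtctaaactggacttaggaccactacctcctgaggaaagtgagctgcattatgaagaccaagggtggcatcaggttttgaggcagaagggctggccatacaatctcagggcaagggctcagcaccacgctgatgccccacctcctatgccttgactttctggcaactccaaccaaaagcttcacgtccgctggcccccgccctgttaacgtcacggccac
Gldc (chr19:30175442-30175691, strand minus): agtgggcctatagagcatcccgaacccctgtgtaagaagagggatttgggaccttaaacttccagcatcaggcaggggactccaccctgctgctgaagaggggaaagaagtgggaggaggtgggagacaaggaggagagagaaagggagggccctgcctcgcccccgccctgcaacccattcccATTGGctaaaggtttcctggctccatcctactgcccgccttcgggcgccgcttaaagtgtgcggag
The CCAAT letters occurred in the windows of Gldc, Shmt1, Mthfd2, Phgdh, Psat1 and Psph, 6 of the 9 members with a window, against 37.4% of 32851 windows. Mthfd2 and the first window of Psat1 held 3 copies each, of which 1 of Psat1 lies after the start, and the second of the 2 Psat1 windows held none. The E-box was in the window of Gcat, 2 bases after the start, against 7.15% of windows, and the response element in none of the members' windows, against 3.97%. A match describes letters, not a bound site.

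Of the threonine catabolism genes, Tdh was lower than R1 in S8, T2 and 16-6, and Gcat in 16-6 only among the calls against R1. Tdh, in mm9 at chr14:64111184-64127929 (minus strand, 10 merged exons), measured 296 and 329.6 FPKM in R1, 178 and 193 in 16-6, 363 and 367.5 in 32, 140.1 in S8 and 141 in T2. The R1 libraries lay above those of 16-6, S8 and T2 and below those of 32, with no overlap between the lines except S8 and T2, whose confidence limits overlapped. The order was 32, R1, 16-6, then T2 and S8, and each tested step in it passed the test. Line 16-6 was lower than R1 by log2 -0.75 ± 0.07 (SE, adjusted p = 0.000963 by limma), S8 by -1.15 ± 0.08 (0.000319) and T2 by -1.14 ± 0.08 (0.000607). Line 32 was higher by 0.23 ± 0.07 (0.0381), a call that was lost in 9 of the 15 alternatives that were run for it, including those without R1 replicate 1 or any replicate of 16-6 or 32 (0.0516 to 0.13), and turned to -0.05 with quantile normalization. Between the mesoderm-derived lines, Tdh was 1.97-fold lower in 16-6 than in 32 (log2 -0.97 ± 0.07, adjusted p = 0.000297 by limma). The Tdh gene shares 66 exon bases with Gm17232 on the opposite strand, and whether the counting used strand is not stated.

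Gcat, at chr15:78861304-78872961, measured 40.3 and 40.2 FPKM in R1, 23.9 and 26 in 16-6, 47.9 and 42.5 in 32, 39.9 in S8 and 33.5 in T2. It did not follow Tdh into S8 and T2. The 16-6 libraries lay below all others, by log2 -0.67 ± 0.07 from R1 (adjusted p = 0.00146 by limma) and -0.83 ± 0.07 from 32 (0.000558). Neither S8 (log2 -0.01, adjusted p = 0.921), T2 (-0.26, 0.0566) nor 32 (0.16, 0.105) passed the test against R1, though T2 was called in 5 of its alternatives and 32 without 32 replicate 2 (0.0424). The mean of the 4 lines was lower than R1 by log2 -0.19 (adjusted p = 0.0365 by limma), with the call lost without R1 replicate 1, R1 replicate 2 or 16-6 replicate 1 (adjusted p = 0.145, 0.136 and 0.0641). The ratio of Tdh to Gcat was 7.35 and 8.20 in R1, 7.45 and 7.44 in 16-6 and 7.59 and 8.64 in 32, but 3.51 in S8 and 4.20 in T2.

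**Figure D2:**
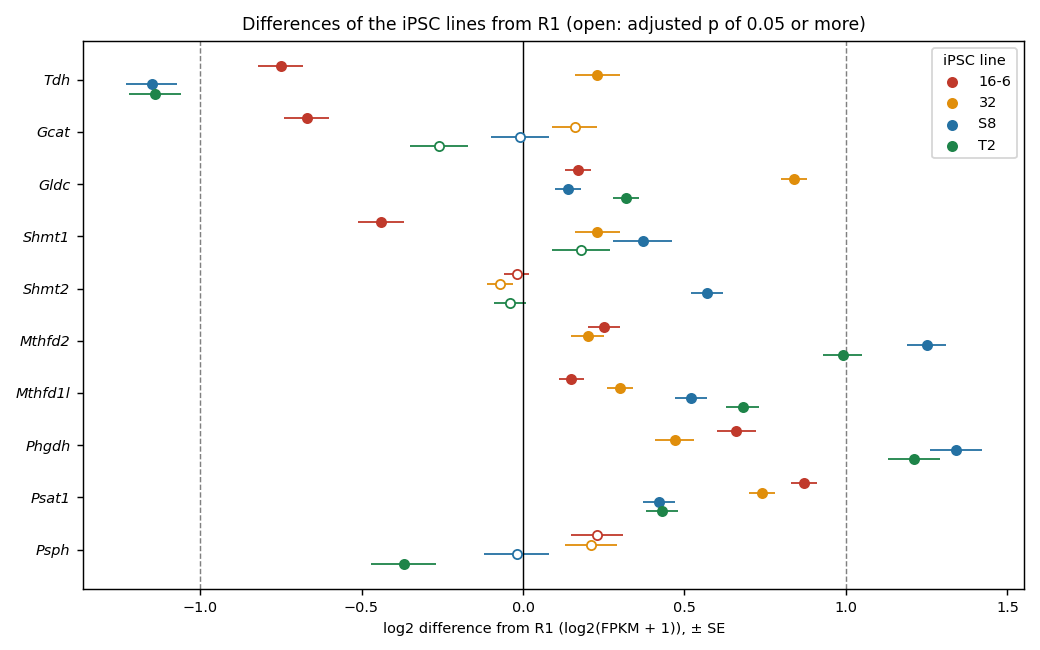
Log2 difference of each iPSC line from R1 (x axis) for each member (y axis), with bars of 1 SE from the limma fit; filled points passed the test and open points did not, and dashed lines mark 2-fold. Tdh lies to the left in 16-6, S8 and T2, and Phgdh, Mthfd2, Mthfd1l, Psat1 and Gldc lie to the right in every line, although Gldc in S8 turned negative with quantile normalization.

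Gldc of the glycine cleavage system, and Shmt1 and Shmt2, which interconvert glycine and serine, each had a line of their own. Gldc, at chr19:30172937-30249908, measured 65.6 and 68.5 FPKM in R1, 75.5 and 75.2 in 16-6, 121 and 119.9 in 32, 73.8 in S8 and 83.9 in T2. Both libraries of 32 lay above all others, 1.8-fold above R1 (log2 0.84 ± 0.04, adjusted p = 9.05e-05 by limma) and log2 0.67 ± 0.04 above 16-6 (0.000129). T2 was higher than R1 by log2 0.32 ± 0.04 (0.00318). The smaller differences in 16-6 (0.17, adjusted p = 0.0139) and S8 (0.14, 0.041) did not hold throughout. The call in 16-6 was lost without either of its replicates (adjusted p = 0.0746 and 0.068). The call in S8 was lost in 10 of 13 alternatives: without R1 replicate 1 or any replicate of 16-6 or 32 (0.0632 to 0.0902), without both 16-6 libraries (0.0869), with the filter raised to 1 FPKM in all libraries (0.0576), with eBayes without a trend (0.0813), with median ratio scaling (0.08, adjusted p = 0.106 by limma) and with quantile normalization (-0.09, 0.122). Its partner Amt, the aminomethyltransferase of the same complex, measured 67 and 71 FPKM in R1, 46.7 and 50.5 in 16-6, 61.1 and 60.8 in 32, 67.4 in S8 and 67.3 in T2. The ratio of Gldc to Amt was 0.98 and 0.96 in R1, 1.62 and 1.49 in 16-6, 1.98 and 1.97 in 32, 1.1 in S8 and 1.25 in T2. The other subunits, Gcsh and Dld, were higher than R1 in 32, by log2 0.41 and 0.33 (adjusted p = 0.00509 and 0.0138 by limma). In T2 Gcsh was at -0.37 and Dld at 0.21 from R1.

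Shmt1, at chr11:60602399-60624767, measured 83.1 and 92.6 FPKM in R1, 61.2 and 67.3 in 16-6, 105 and 100.4 in 32, 114 in S8 and 99.9 in T2. The 16-6 libraries were the lowest, by log2 -0.44 ± 0.07 from R1 (adjusted p = 0.00596 by limma) and -0.67 ± 0.07 from 32 (0.00123). The other neighbours in the order S8, 32, T2 and R1 did not differ beyond the test. Against R1, S8 was higher by log2 0.37 (adjusted p = 0.0167), a call lost without R1 replicate 1 (0.0515) and with quantile normalization (0.14, 0.207). Line 32 was higher by 0.23 (adjusted p = 0.0469 by limma), a call lost in 9 of 15 alternatives, including those without R1 replicate 1 or any replicate of 16-6 or 32 (0.0551 to 0.178) and quantile normalization (0.08, 0.393).

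Shmt2, at chr10:126954195-126959491, measured 87.9 and 93.6 FPKM in R1, 88.7 and 90.3 in 16-6, 86.3 and 86.4 in 32, 135 in S8 and 88.5 in T2. The other 7 libraries lay between 86.3 and 93.6, and S8 stood alone above them. S8 was higher than R1 by log2 0.57 ± 0.05 (adjusted p = 0.000572 by limma), and 1.53-fold higher than T2, with confidence limits apart. The other lines were not called (log2 -0.02, -0.07 and -0.04 in 16-6, 32 and T2), though 32 was at -0.23 with quantile normalization (adjusted p = 0.00622 by limma). The mean of the 4 lines differed from R1 by log2 0.11 (0.0396), with the call lost in 7 of 12 alternatives, including those without R1 replicate 1 or any replicate of 16-6 or 32 (0.0701 to 0.163) and quantile normalization (0.01, 0.899). Shmt2 shares 14 exon bases with Ndufa4l2 on the opposite strand, which ranged from 1.35 to 49.9 FPKM. The ratio of the mitochondrial to the cytosolic enzyme, Shmt2 to Shmt1, was 1.06 and 1.01 in R1, 1.45 and 1.34 in 16-6, 0.82 and 0.86 in 32, 1.19 in S8 and 0.89 in T2.

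The mitochondrial folate enzymes were highest in S8 and T2. Mthfd2, the dehydrogenase and cyclohydrolase at chr6:83255698-83267598, measured 39.6 and 41.2 FPKM in R1, 49.1 and 47.5 in 16-6, 48.3 and 44.9 in 32, 97.6 in S8 and 81.3 in T2. S8 and T2 lay far above the other 6 libraries, at log2 1.25 ± 0.06 (adjusted p = 0.000133 by limma) and 0.99 ± 0.06 (0.00041) from R1. The call in 16-6 (0.25, adjusted p = 0.011) was lost without R1 replicate 1 or 16-6 replicate 1 (0.0556 and 0.0656), and that in 32 (0.20, 0.0211) without R1 replicate 1 or 32 replicate 1 (0.0906 and 0.0759) and with quantile normalization (0.11, 0.108). Lines 16-6 and 32 did not differ beyond the test (log2 0.05, adjusted p = 0.418), but did with quantile normalization (0.15, 0.0449). The related Mthfd2l ranged from 2.3 to 4.65 FPKM, and the ratio of Mthfd2 to Mthfd2l was 42.5 in S8 against 10.6 to 18.6 in the other 7 libraries.

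Mthfd1l, the formate-releasing ligase at chr10:6179460-6373466, measured 43.9 and 45.6 FPKM in R1, 49.9 and 49.8 in 16-6, 54.1 and 56.5 in 32, 64.5 in S8 and 72.2 in T2. Each line lay above the one before it, and the values of no 2 lines overlapped. Some confidence limits did, such as those of R1 replicate 2 (43.5 to 47.7) and 16-6 replicate 2 (46.9 to 52.6). The latter also overlapped those of 32 replicate 1 (51.1 to 57). T2 was higher than R1 by log2 0.68 ± 0.05 (adjusted p = 0.000561 by limma), S8 by 0.52 ± 0.05 (0.000644) and 32 by 0.30 ± 0.04 (0.00247). The step from R1 to 16-6 (0.15, adjusted p = 0.0259) was lost without R1 replicate 1 or either 16-6 replicate (0.0941 to 0.108), and so was that from 16-6 to 32 (0.15, 0.0266) without either 16-6 replicate or 32 replicate 2 (0.104 to 0.106), with quantile normalization (0.05, 0.27) and with median ratio scaling (0.06, 0.215). The gene is on the minus strand in mm9 and on the plus strand in GRCm38.p6. The ratio of Mthfd2 to Mthfd1l was 0.79 to 0.98 in R1, 16-6 and 32, 1.13 in T2 and 1.51 in S8.

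Phgdh, which catalyses the first step of serine synthesis, and Psat1, the transaminase after it, were higher than R1 in all iPSC libraries but in different orders among the lines. Phgdh, at chr3:98117094-98143892, measured 49.8 and 54.1 FPKM in R1, 83.7 and 81.6 in 16-6, 75.2 and 69.1 in 32, 133 in S8 and 121.8 in T2. R1 lay below all other libraries, and S8 and T2 above all others. S8 was higher by log2 1.34 ± 0.08 (adjusted p = 0.000169 by limma), T2 by 1.21 ± 0.08 (0.00041), 16-6 by 0.66 ± 0.06 (0.00101) and 32 by 0.47 ± 0.06 (0.00245). Lines 16-6 and 32 differed by log2 0.19 (0.0441), a call lost in 6 of 14 alternatives, including those without either 16-6 replicate or 32 replicate 2 (0.116 to 0.168).

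Psat1, at chr19:15979613-15999549, measured 177 and 183 FPKM in R1, 332 and 329 in 16-6, 303 and 298 in 32, 241 in S8 and 242 in T2. R1 was again lowest, but here the mesoderm-derived lines lay above S8 and T2. Line 16-6 was higher than R1 by log2 0.87 ± 0.04 (adjusted p = 0.000149 by limma), 32 by 0.74 ± 0.04 (0.000137), T2 by 0.43 ± 0.05 (0.00146) and S8 by 0.42 ± 0.05 (0.000979), which was 0.07 with quantile normalization (0.194). Lines 16-6 and 32 differed by log2 0.14 (0.0269), a call lost in 6 of 14 alternatives, including those without any 1 of the 16-6 or 32 replicates (0.0651 to 0.127). S8 and T2 did not have separate confidence limits. The ratio of Psat1 to Phgdh lay between 3.39 and 4.32 in the libraries of R1, 16-6 and 32, beside 1.81 for S8 and 1.99 for T2.

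Psph, the phosphatase of the last step, at chr5:130271434-130293129, measured 31 and 30.1 FPKM in R1, 36.9 and 35 in 16-6, 32.7 and 38.3 in 32, 30 in S8 and 23.4 in T2. It was the member with the smallest range of line means, log2 0.60. T2 was the lowest library, by log2 -0.37 ± 0.10 from R1 (adjusted p = 0.0277 by limma), a call lost without either R1 replicate or either 16-6 replicate (0.0526 to 0.0973). No other line was called (16-6 at 0.23, adjusted p = 0.0643, 32 at 0.21, 0.0795, and S8 at -0.02, 0.864), although 16-6 was called in 4 of its alternatives and 32 in 2. The F test over the 5 lines called all 10 members, with the largest adjusted p at 0.0135 for Psph, but it called 88.4% of all genes.

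**Figure D3:**
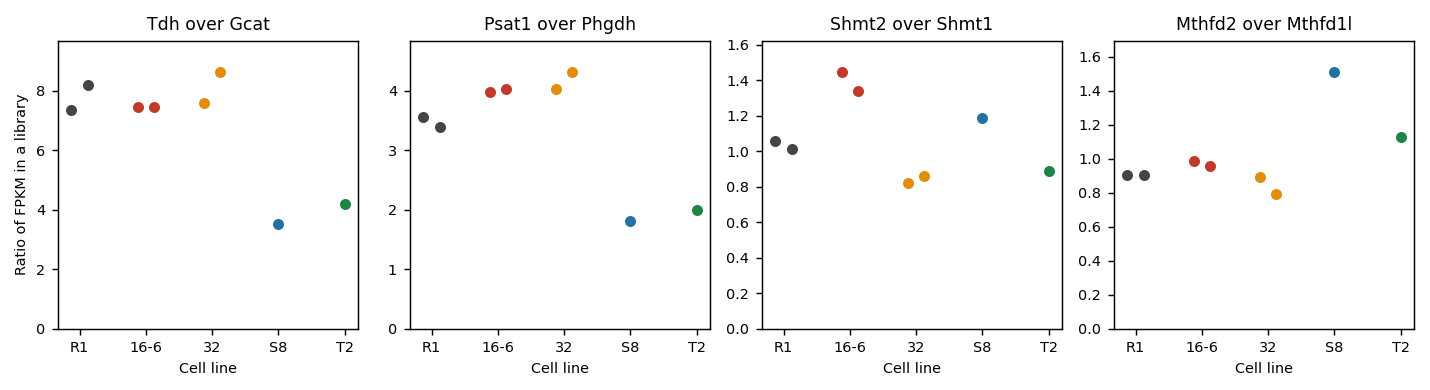
Ratios of FPKM of 2 members in the same library (y axes, linear and starting at 0), by cell line; each point is 1 library. The ratios of Tdh to Gcat and of Psat1 to Phgdh lie near each other in R1, 16-6 and 32 and lower in S8 and T2.

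The lines derived from mesoderm were set against each other with 2 libraries each. In 16-6 against 32, 7 members were called, against 60.4% of all genes: 2 were higher in 16-6 (27.5%) and 5 lower (32.9%). None was 2-fold (10.3%). Tdh, Gcat, Gldc and Shmt1 were lower in 16-6 in every alternative that was run, by log2 -0.97 to -0.67, while the other 3 calls were lost in some. The summed feeder markers were highest in 16-6 and lowest in 32, and their part in these differences was not tested. All 9 tested pluripotency markers were also lower in 16-6 than in 32 (32.9% of all genes). Their median was log2 -0.79, beside -0.06 over all genes. Against R1 all 9 were lower in 16-6 as well (29.9% of all genes), with a median of -0.71 beside -0.03. S8 and T2 had 1 library each and were set side by side only by their confidence limits, which cover counting and assignment of fragments and rest on the uncertain depth given above. The limits lay apart for 7 members, against 48.1% of all genes, and none of the 10 was 2-fold apart (3.32% of all genes). Of 33 testable neighbouring pairs in the orders of the lines, 20 passed the test and 13 did not, against 32.1% passing among such pairs over all genes. The members' count fell to 12 without 16-6 replicate 1 or 16-6 replicate 2.

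Pluripotency markers were read beside Tdh, since Tdh marks mouse pluripotent cells. Esrrb, a nuclear receptor of the naive state, measured 184 and 175 FPKM in R1, 86.4 and 87.1 in 16-6, 172 and 178 in 32, 60.2 in S8 and 53.4 in T2. Nanog measured 177 and 174 in R1, 153 and 159.7 in 16-6, 321 and 327 in 32, 80.8 in S8 and 111.6 in T2. Zfp42 (Rex1) was 541 and 544 in R1 and 92.9 to 277 in the iPSC libraries. Pou5f1, which encodes Oct4, was not ordered like Tdh: it was highest in S8 (1020.2) and lowest in 16-6 (485 and 492). Utf1 was likewise highest in S8 (1193) and lowest in 16-6 (368 and 363). On log2(FPKM + 1) over the 8 libraries, Pearson's r with Tdh was 0.98 for Esrrb, 0.89 for Nanog and 0.84 for Zfp42. For the other 6 markers it was 0.50 for Sox2, 0.43 for Dppa5a, 0.17 for Tdgf1, -0.03 for Fgf4, -0.24 for Pou5f1 and -0.43 for Utf1. The points come from 5 lines, 3 of them with replicates, so they are not independent and r is given as a description. Line 32 had Zfp42 at log2 -1.02 ± 0.05 from R1 (adjusted p = 0.000104 by limma) although Tdh was highest there. The primed epiblast and mesendoderm markers also summed highest in 32 (60.6 and 61.6 FPKM).

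**Figure D4:**
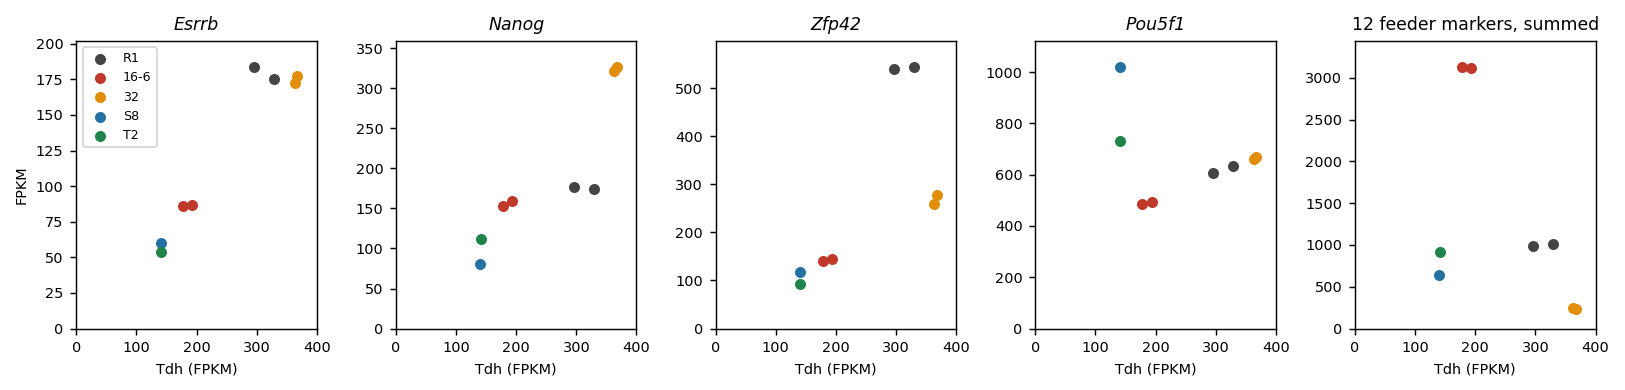
FPKM of Esrrb, Nanog, Zfp42, Pou5f1 and the summed 12 feeder markers (y axes, linear) against FPKM of Tdh (x axis); each point is 1 library, coloured by line. Esrrb and Tdh are both lowest in S8 and T2, next in 16-6, and higher in R1 and 32, whose Esrrb values overlap, and the feeder sum is highest in 16-6 (3113 and 3129) and lowest in 32 (238 and 248).

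Genes most like Tdh and Phgdh over the libraries were sought among 4970 tested genes with a range of line means of at least log2 1. Nearest to Tdh were Bmp4 (r = 0.998), N4bp1 (0.994), Kdm3a (0.991), Bpnt1 (0.99) and Tead4 (0.988). Bmp4, a signalling ligand, measured 10.7 and 12.1 FPKM in R1, 7.13 and 7.25 in 16-6, 12.6 and 13.4 in 32, 5.78 in S8 and 5.61 in T2. Nearest to Phgdh were Lnx2 (0.992), Syt11 (0.991), Slc1a5 (0.989), Ctbp1 (0.989) and Lpcat4 (0.986), of which Slc1a5 carries neutral amino acids across the plasma membrane. Among the members themselves, r was 0.94 for Mthfd2 with Phgdh, 0.88 for Mthfd2 with Mthfd1l and for Mthfd1l with Phgdh, 0.86 for Gcat with Shmt1 and -0.83 for Tdh with Phgdh, over the same 8 libraries.

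The members were among the more abundant transcripts. Their mean levels over the 8 libraries ran from 32.2 FPKM (Psph) to 263 (Psat1) and stood above 71.8% to 96.4% of the tested genes, whose median was 12.7. Psat1 and Tdh, at 263 and 251 FPKM, were the highest. The range of line means was widest for Tdh (log2 1.38), Phgdh (1.34) and Mthfd2 (1.25), beside a median of 0.82 over all genes.

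Other genes of the pathway were taken from lists and described by counts and medians. Of all genes tested, 25.7% were higher and 29.9% lower than R1 in 16-6, and 28.6% and 32.9% in 32. In S8 these shares were 32.1% and 34.6%, and in T2 27% and 30.9%. The counts of each list below stand beside these shares. Purine synthesis is a pathway that uses folate-bound formate. Of its 10 listed genes, 1 was higher and 5 lower than R1 in 16-6, and 7 higher and none lower in 32. In S8 7 were higher and 1 lower, and in T2 8 were higher and 1 lower. The medians were -0.13, 0.35, 0.62 and 0.52 in 16-6, 32, S8 and T2. Atic, the bifunctional enzyme of the last steps of purine synthesis, was higher by log2 1.53 ± 0.16 in S8 and 1.44 ± 0.16 in T2 (adjusted p = 0.000943 and 0.00177 by limma). Adsl, adenylosuccinate lyase, was higher by 1.09 ± 0.04 in S8. In 16-6 against 32, 7 of the 10 were lower (32.9% of all genes) and 0 higher (27.5%).

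Of 16 other folate cycle and folate uptake genes tested, 6 were higher and 5 lower in 16-6, 2 and 4 in 32, 8 and 2 in S8 and 9 and 1 in T2, with medians of 0.10, 0.06, 0.37 and 0.38. Folr1, a folate receptor, was 16.8 and 17.7 FPKM in R1 and 48.7 in S8 (log2 1.45 ± 0.07), and Fpgs, which adds glutamates to folate, was 36 and 39.7 in R1 and 88.6 in S8 (1.21 ± 0.07). Aldh1l1, which oxidises formyl-tetrahydrofolate in the cytosol, lay below R1 in all 4 lines, by log2 -0.53 in 32 to -1.19 in 16-6. Mthfs, methenyltetrahydrofolate synthetase, was lower in 32 by log2 -1.0 ± 0.23 (adjusted p = 0.0148 by limma), at 0.72 to 1.08 FPKM.

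Of 8 tested genes listed as serine, glycine and threonine transporters, Slc1a5 exceeded R1 in each iPSC line. It did so by log2 0.51, 0.49, 1.33 and 1.19 in 16-6, 32, S8 and T2. Slc36a4, grouped by name with the proton-coupled amino acid transporters, was lower in S8 by -1.18 ± 0.09 and in 32 by -0.77 ± 0.07. Which amino acids it carries was not examined. Over the list, 3 were higher and 2 lower in 16-6, 2 and 3 in 32, 3 and 3 in S8, and 5 and 2 in T2, with medians of 0.19, -0.05, 0.16 and 0.37.

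Of 11 methionine cycle and transsulfuration genes tested, 1 was higher and 5 lower in 16-6, 3 and 3 in 32, 2 and 3 in S8, and 1 and 4 in T2, with medians of -0.16, -0.01, -0.12 and -0.01. Mat2a, which makes S-adenosylmethionine, was higher in 32 by log2 1.1 ± 0.04, at 618 and 621 FPKM beside 286 and 292 in R1. Cbs, which condenses serine with homocysteine, lay below R1 in all 4 lines, by -0.86 in 32 to -1.21 in 16-6. Amd1 was at 16 and 0.01 FPKM in the replicates of 16-6 and at 0.08 and 26.6 in those of 32, and it has near-identical copies, so its values are uncertain; it was singled out after its values were seen.

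Of 16 Atf4 and amino acid response genes, 5 were higher and 3 lower than R1 in 16-6, 5 and 5 in 32, 8 and 4 in S8 and 7 and 5 in T2, with medians of 0.07, 0.03, 0.24 and 0.05. Chac1, a glutathione-degrading enzyme, was 2.51 and 2.47 FPKM in R1 but 11.4 in S8 and 8.82 in T2 (log2 1.82 ± 0.07 and 1.49 ± 0.07). Trib3, a pseudokinase, was higher in S8 by 1.33 ± 0.10. Asns lay below R1 in S8 and T2 (log2 -0.59 and -0.54) and above it in 16-6 and 32 (0.29 and 0.8). Slc7a11, the cystine transporter, was low everywhere (0.09 to 4.17 FPKM) and lay below R1 in all 4 lines, by -1.55 in T2 to -2.15 in 32. Cebpb, a transcription factor, was lower in 32 by -2.18 ± 0.13. Of 4 tested genes of the other glycine cleavage subunits and serine catabolism, 0 were higher and 2 lower in 16-6, 2 and 1 in 32, 1 and 0 in S8 and 1 and 1 in T2, with medians of -0.21, 0.19, 0.17 and 0.09. For all 6 lists the medians stand beside -0.03, -0.02, -0.03 and -0.03 over all genes.

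**Figure D5:**
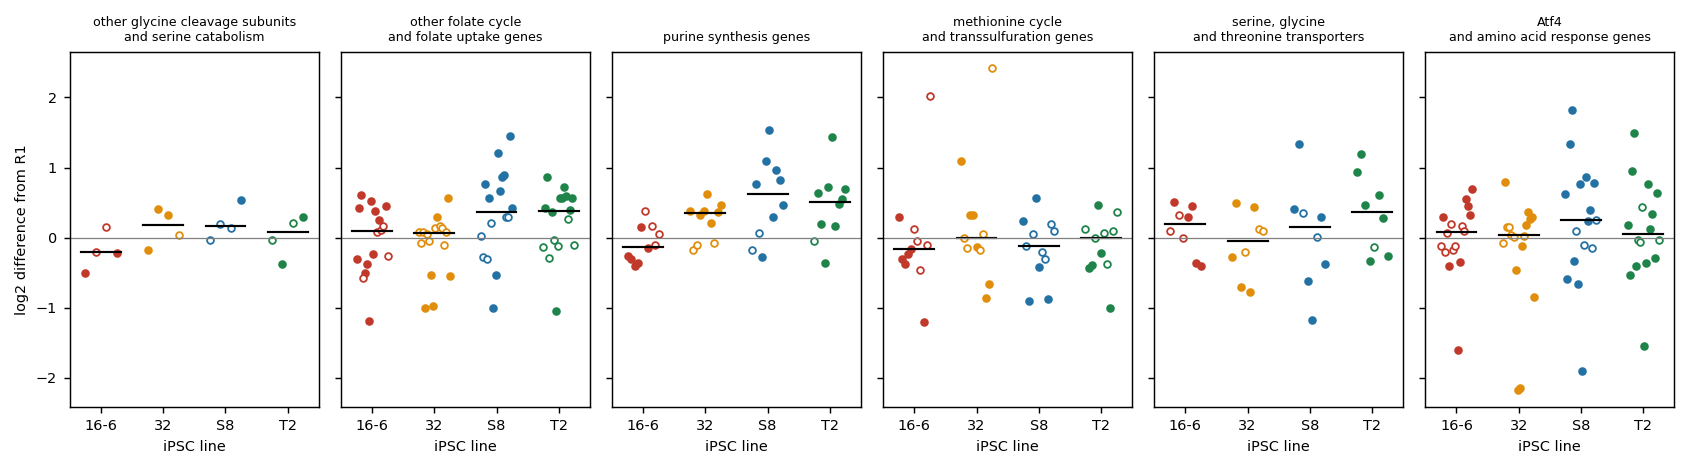
Log2 differences from R1 (y axis) of the genes in 6 other lists, by iPSC line (x axis); each point is 1 gene, filled where it passed the test, and the black bar is the median. Purine synthesis genes lie mostly above 0 in 32, S8 and T2, with medians of 0.35, 0.62 and 0.52.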

How the data were processed

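RNA-Seq of 8 libraries (R1, 16-6 and 32 with 2 each, S8 and T2 with 1 each) was analysed from the FPKM and confidence limits that the authors deposited. The authors mapped reads with TopHat 2.0.4 to mm9, kept unique alignments to UCSC genes and computed FPKM with Cufflinks, given as 2.0.0 in the submitters' processing notes. The study's methods name a later release and call the unit RPKM. The options used are not given in the sources used here, and whether counting used strand is not stated.

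The deposited FPKM were divided by 12726, which sets the median library total to 1000000. The 13693 genes reaching an FPKM of 1 in any library were fitted as log2(FPKM + 1), in which the pseudocount understates changes of low genes, with limma 3.58.1 and its trended eBayes under R 4.3.3. The fit used the 5 lines as groups over 8 libraries and left 3 residual degrees of freedom. S8 and T2 were assumed to vary like the other lines, and S8 against T2 had no test. Fragments behind a value were estimated from the confidence limits, which cover counting and assignment of fragments, so the estimates are not counts. Mthfd1l, for example, at 49.9 and 49.8 FPKM in 16-6, gave 1639 and 1227 fragments. The limits do not show the greater read numbers that the study lists for S8 and T2. Alternatives were pseudocount 0.1, other filters, quantile normalization, median ratio scaling, eBayes without a trend, and fits without single libraries, with a replicate block, or without 16-6. The last was chosen after seeing the data. Python 3.11.15 was used for the rest.

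The members and gene lists were chosen with earlier results of these data known. Named genes were all members, and, from each other list, up to 4 past the test and 2-fold with the largest difference from R1, Pou5f1 as a defining marker, and the 5 genes most correlated with Tdh and with Phgdh. Amt, Gcsh, Dld, Mthfd2l, Asns, Amd1, genes overlapping a member and the other pluripotency markers' correlations were added after their values were seen. So were the primitive endoderm markers other than Dab2 and Pdgfra. Coordinates are in mm9 and 1-based. Starts in the files were taken as 0-based, as 12760 of 21890 gene starts matched the annotation that way and 824 otherwise. Promoters are RefSeq windows of GRCm38.p6.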

Additional observations from a re-analysis of the deposited data

Results flagged for a closer look

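Some members differed between iPSC lines under the same contrast with R1. Tdh was higher in 32 than in S8 by log2 1.38 and than in T2 by 1.37 (adjusted p = 0.000299 and 0.000543 by limma). Tdh and Shmt1 lay below R1 in 16-6 and above it in 32, and 16-6 minus 32 was -0.97 for Tdh and -0.67 for Shmt1, although the calls of 32 above R1 were lost in 9 of 15 alternatives for each gene. Mthfd2 was lower in 16-6 than in S8 by log2 -1.0 (adjusted p = 0.000201 by limma) and lower in 32 than in S8 by -1.05 (0.000272). S8 and T2 have 1 library each.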

How the results depend on the processing

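Of 810 values of single members under the alternatives, 720 kept their side of the threshold, 72 no longer passed and 16 newly passed. Another 2 lost their call and reversed in sign: Tdh in 32 (-0.05) and Gldc in S8 (-0.09), both with quantile normalization. The cause was not tested. Changes of sign between values that were not called stand among the 720, such as Shmt2 in 16-6 against R1 (-0.07 to 0.02 without single libraries). The 2-fold members of S8 and T2 passed in each alternative. In S8 against R1, 5 members passed with quantile normalization in place of 8. Leaving out 1 library gave 5 to 9 members in 16-6 against R1, 4 to 7 in 32 against R1, 4 to 7 in 16-6 against 32 (0 to 1 with the 2-fold limit) and 12 to 20 passing neighbouring pairs. Without both 16-6 libraries, chosen after seeing the data, 5, 7 and 6 members passed in 32, S8 and T2. The replicate numbers did not pair the samples (correlations of their deviations -0.097, 0.001 and 0.028), and the replicate block on 6 libraries gave 8, 7 and 5 members in 16-6 against R1, 32 against R1 and 16-6 against 32, against 8, 7 and 7 without it, losing Phgdh and Psat1 in the last (adjusted p = 0.0674 and 0.0554 by limma). Genes past 2-fold among all genes moved from 974 to 1690 in 16-6, 1338 to 2258 in 32, 1437 to 2198 in T2 and 878 to 1664 in the mean with pseudocount 0.1, and to 565, 740, 940 and 462 with FPKM of at least 1 in every library (16-6 against 32: 1412 to 859). With quantile normalization the higher share of called genes went from 46.5% to 57.5% in 32, and of 2-fold genes from 15.8% to 36.1% in 32, 28.9% to 42.1% in the mean and 89.4% to 78.9% in 16-6 against 32. At 15.5 to 16.7 fragments per library in units of 1000000, as the limits in the files imply, Gcat and Psph had the fewest fragments.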
